A study of Mus musculus with 56 samples.

Results

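The course of 10 heat-shock transcripts through the day was followed in the anterior hypothalamus of mice fed at opposite times of day. The 10 genes were taken by name, Hspa1a, Hspa1b, Hspa8, Hsph1, Hspa4l, Dnajb1, Hsp90aa1, Hspb1, Hspd1 and Hsf1, and each was found among the 17564 genes of the deposited table, whose rows are NCBI Gene IDs. Female C57BL/6J mice of 9 weeks were kept in 12 h of light and 12 h of dark and ate in the light period (day time-restricted feeding, DRF, food from ZT0 to ZT12) or in the dark period (night time-restricted feeding, NRF, food from ZT12 to ZT0) for 7 days. ZT is zeitgeber time in hours, with lights on at ZT0. Tissue RNA was sequenced from 4 mice per regimen every 4 h from ZT0 to ZT24, 7 time points in all, and the 56 mice were all different animals. All mice were of this strain, and no group ate freely, so each regimen can only be compared with the other. The 10 genes were chosen as cytosolic heat-shock genes, but by what is known of them Hspd1 encodes a chaperonin of mitochondria and Hsf1 a transcription factor.

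Heat-shock proteins are chaperones, which hold or refold other proteins, and cells make more of them when heat or misfolded protein releases the heat-shock factor HSF1 to bind promoters. HSP70 proteins bind short unfolded stretches with the help of J proteins, which load the client and start the hydrolysis of ATP, and of HSP110 proteins, which exchange the nucleotide. HSP90 takes over clients such as kinases and steroid receptors, small heat-shock proteins keep unfolded protein from clumping, and the chaperonins fold protein inside a closed chamber. The stress-inducible HSP70 genes Hspa1a and Hspa1b are little expressed in unstressed cells, whereas Hspa8 is expressed in them throughout.

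HSF1 binds repeats of the bases GAA in alternating direction. The stretches below are the 250 bases before the transcript start (RefSeq, GRCm38.p6, read on the strand of the gene), shown for the members that hold a heat-shock core and because the first 2 are nearly identical. For Hsph1 and Hspd1, which have more than 1 start, a single one is shown. Capitals mark the cores GAANNTTC and TTCNNGAA, which read the same on both strands and can overlap each other.
Hspa1a, chr17:34972157-34972406, minus strand: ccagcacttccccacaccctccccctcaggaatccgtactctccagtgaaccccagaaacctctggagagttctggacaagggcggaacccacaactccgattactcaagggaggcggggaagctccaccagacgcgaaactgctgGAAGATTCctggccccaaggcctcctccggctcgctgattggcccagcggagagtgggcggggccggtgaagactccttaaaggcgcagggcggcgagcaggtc
Hspa1b, chr17:34959239-34959488, minus strand: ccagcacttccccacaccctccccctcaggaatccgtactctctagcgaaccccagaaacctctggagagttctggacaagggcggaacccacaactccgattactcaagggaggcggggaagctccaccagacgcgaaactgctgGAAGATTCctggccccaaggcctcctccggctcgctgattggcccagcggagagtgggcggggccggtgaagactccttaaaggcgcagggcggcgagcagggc
Hsph1, chr5:149636337-149636586, minus strand: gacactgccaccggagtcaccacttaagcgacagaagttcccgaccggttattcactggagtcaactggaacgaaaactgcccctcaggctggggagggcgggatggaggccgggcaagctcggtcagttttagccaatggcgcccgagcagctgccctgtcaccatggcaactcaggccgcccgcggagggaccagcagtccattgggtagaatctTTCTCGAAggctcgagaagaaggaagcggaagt
Hspb1, chr5:135887669-135887918, plus strand: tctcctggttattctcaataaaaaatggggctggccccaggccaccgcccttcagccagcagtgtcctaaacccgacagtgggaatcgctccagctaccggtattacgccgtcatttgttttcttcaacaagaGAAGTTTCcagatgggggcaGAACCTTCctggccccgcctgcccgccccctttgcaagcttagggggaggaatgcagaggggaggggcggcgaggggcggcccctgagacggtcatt
Hspd1, chr1:55087933-55088182, minus strand: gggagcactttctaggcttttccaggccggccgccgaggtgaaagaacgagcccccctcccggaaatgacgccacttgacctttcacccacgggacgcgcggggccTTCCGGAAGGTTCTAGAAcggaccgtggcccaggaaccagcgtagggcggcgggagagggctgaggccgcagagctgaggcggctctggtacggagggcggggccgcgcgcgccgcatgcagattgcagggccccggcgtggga

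The stretches of Hspa1a and Hspa1b matched at 247 of 250 bases. These genes lie side by side on chromosome 17, at 34969359 to 34972156 and at 34956429 to 34959238, and their reads were shared out between them by the authors' counting. Recovered reads of the other 8 transcripts were whole numbers (within 0.2 of a read) in 56 of 56 mice, while those of Hspa1a and Hspa1b were fractions in most mice, so their separate levels are uncertain and their sum is given beside them. Of the 10 stretches of the 7 members with a promoter in the table, 6 held a core, against 12.8% of all 32851 promoter stretches. These 6 are not independent: both Hsph1 stretches overlap and hold the same core, and those of Hspa1a and Hspa1b are nearly identical. Hspb1 held 2 cores. The other Hspd1 stretch, at chr1:55088244-55088493, held 0 cores, and the one shown held 3 overlapping ones, which also matched the longer form of 3 units in a row found in 0.466% of all stretches. No core was matched in the Dnajb1 and Hspa4l stretches, which says only that these letters were absent there.

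**Figure D1:**
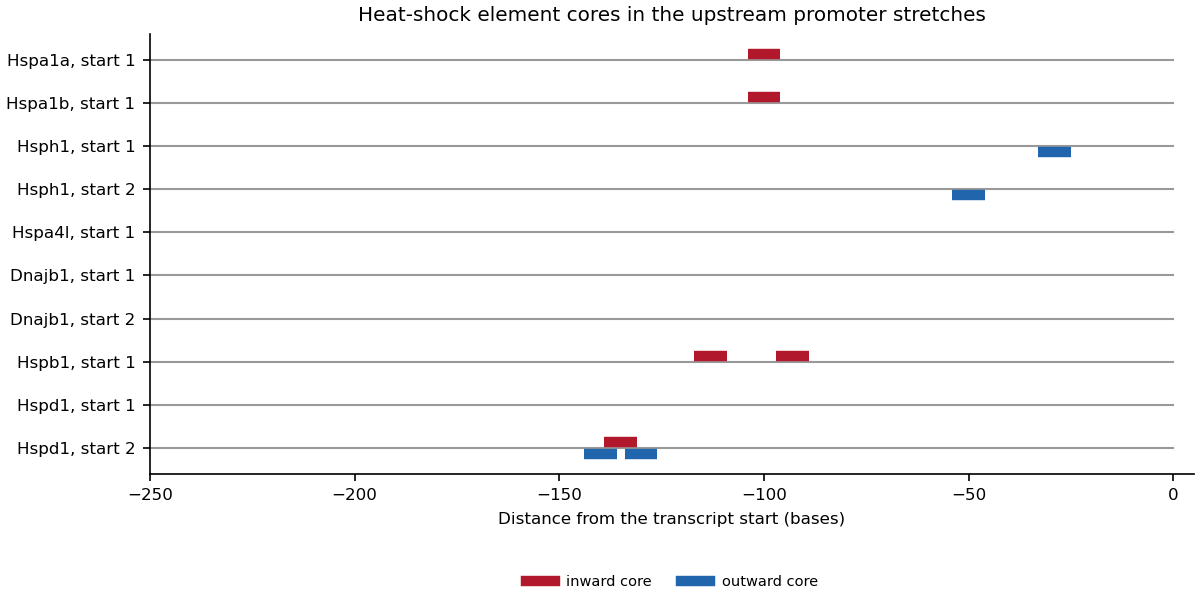
Positions of heat-shock element cores (GAANNTTC, inward, red; TTCNNGAA, outward, blue) in the 10 upstream stretches of 7 members, by distance in bases from the transcript start. Hspa1a and Hspa1b carry their single core at the same place, 104 to 97 bases before the start.

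On GRCm38.p6, with NCBI Gene IDs in brackets, Hspa8 [15481] lies at chr9:40801276-40805202, Hsph1 [15505] at chr5:149616843-149636498 and Hspa4l [18415] at chr3:40744500-40796103. Dnajb1 [81489] lies at chr8:83608175-83612653, Hsp90aa1 [15519] at chr12:110691036-110696395 and Hspb1 [15507] at chr5:135887919-135889563. Hspd1 [15510] lies at chr1:55077833-55088243 and Hsf1 [15499] at chr15:76477362-76501155. Hspa1a and Hspa1b have the IDs 193740 and 15511.

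Levels are given as CPM, normalised reads scaled to a common library total, recovered from the deposited values. Per kilobase of exon, the order of the mean levels over 56 mice was Hspa8 (640 ± 58.9 CPM per kilobase, SD), Hsp90aa1 (390 ± 50.5), Hspd1 (87.3 ± 7.98), Hsph1 (53.7 ± 9.68), Dnajb1 (24.8 ± 4.97), Hspa4l (24.6 ± 3.26), Hspb1 (7.22 ± 2.83), Hsf1 (6.11 ± 0.73), Hspa1a (6.01 ± 1.88) and Hspa1b (3.07 ± 1.91). Dnajb1 and Hspa4l did not differ beyond their spread, and neither did Hspb1, Hsf1 and Hspa1a. Hspa8 stood above 99.8% of the genes in the table and Hspa1b above 43.7%. The rarest transcripts rest on few reads, 112 to 460 per mouse for Hspb1 and 85.2 to 711 for Hspa1b, and Hspa8 on at least 71561.

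Normalised library sizes were 29591262 to 34493346 reads per mouse. Markers of neurons (Snap25, Syt1, Rbfox3, Slc17a6, Gad1) and of the anterior hypothalamus (Avp, Vip, Oxt, Sim1, Six6, Lhx1, Rorb, Crh) were above 0 in every mouse. In DRF at ZT16, replicates 3 and 4 stood apart in how expression followed GC content, at 0.38 and 0.55 log2 units per 10% GC against -0.16 to 0.17 in the other 54 libraries. Tests of the 10 members were repeated without both. Counts on other gene lists, likeness and correlations keep these libraries and are not given without them. In bulk tissue, fewer cells of a type and less RNA per cell cannot be told apart.

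The first question was how each transcript moved through the day when food came in the natural feeding phase. In NRF tissue all 10 transcripts rose in the dark period, when these mice ate, and fell in the light period. Each was rhythmic over 24 h (JTK_CYCLE and Lomb-Scargle combined, Benjamini-Hochberg adjusted p = 1.21e-06 for Hsph1 to 0.0104 for Hsf1), in a tissue where 27.7% of 16245 transcripts were. Adjusted p-values are over all transcripts tested, and an adjusted p under 0.05 is called a change here. A 24-h cosine fitted with limma to log2(CPM + 1) called the same 10, against 30.2% of 16075 transcripts, with peaks from 19.1 h for Hspa1b and Dnajb1 to 21.5 h for Hspa8. The Lomb-Scargle part of the combined test called 0 of 10 on its own. Markers of other cells also cycled in NRF. Those of endothelium (4 of 4 with a called 24-h cosine) summed to 128 ± 8.25 CPM at ZT12 and 151 ± 5.75 at ZT20, the highest group. Those of oligodendrocytes (4 of 4) were highest at ZT12, 6219 ± 767 CPM, when most members were low, and 4564 ± 250 at ZT24. The part of these cells in the courses of the 10 transcripts was not tested.

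**Figure D2:**
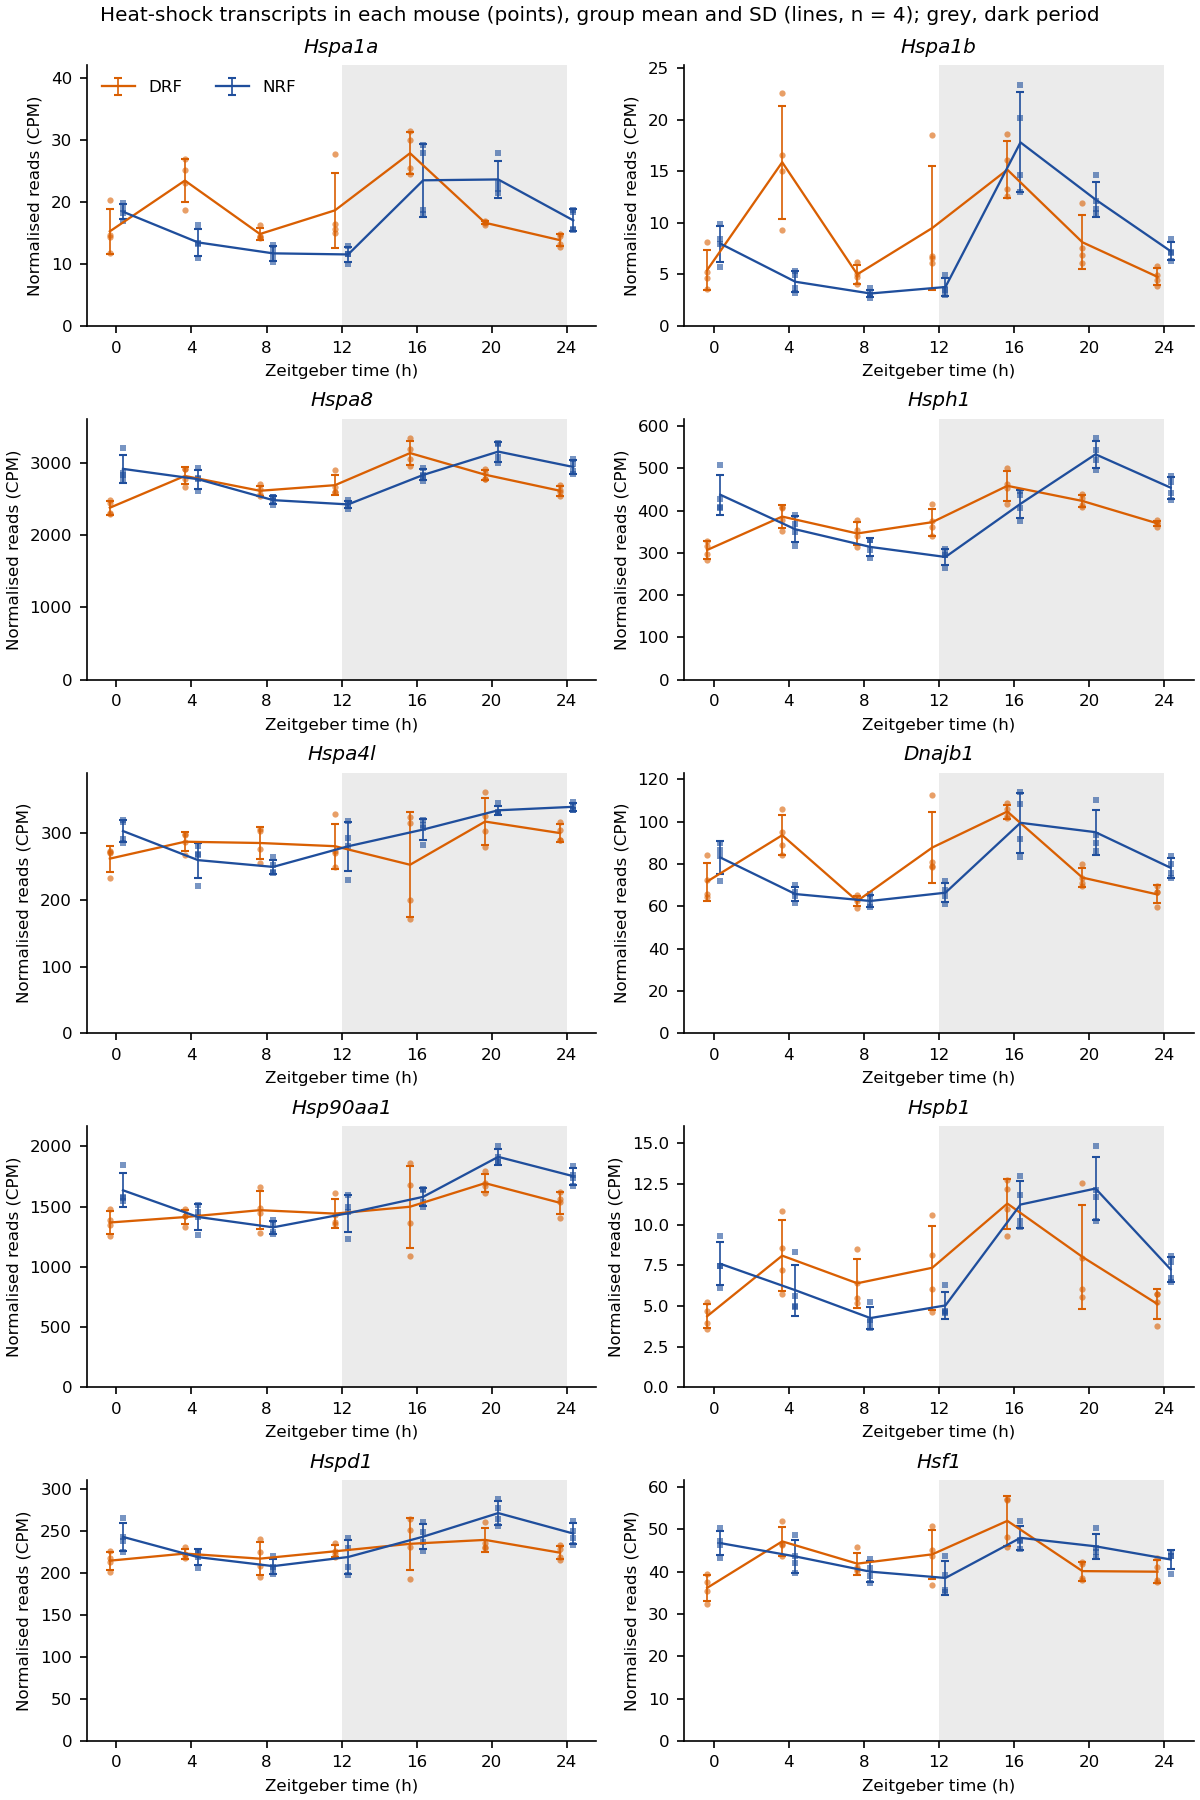
Normalised reads (CPM, vertical axis from 0) of the 10 transcripts by zeitgeber time, DRF in orange circles and NRF in blue squares, each point 1 mouse and each line the group mean with SD, n = 4. In NRF each transcript has a single rise in the dark period, and in DRF Hspa1a, Hspa1b and Dnajb1 rise at ZT4 and again at ZT16.

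Of the inducible HSP70 genes, Hspa1b had the largest amplitude of the 10 in NRF. It was 3.23, 3.02, 3.64 and 2.73 CPM in the 4 mice at ZT8, and 20.2, 23.4, 12.9 and 14.6 at ZT16. Those mice did not overlap, and the means differed by 5.64-fold. Hspa1a in NRF was 11.6, 11.5, 10.1 and 13 CPM at ZT12, 27.9, 29.2, 18.1 and 18.7 at ZT16, and 27.9, 23.0, 21.4 and 22.1 at ZT20. All 4 mice at ZT16, 4 h into the feeding period, were thus above all 4 at ZT12, and the level stayed high at ZT20. The 24-h amplitude was 1.05 ± 0.10 log2 units (SE) for Hspa1b and 0.54 ± 0.06 for Hspa1a. Their sum was 14.9 ± 1.21 CPM at ZT8 and 41.3 ± 10.7 at ZT16 (SD, n = 4).

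Hspb1, which encodes the small heat-shock protein HSP27, came between them with an amplitude in NRF of 0.67 ± 0.07 log2 units. It was 4.01, 5.21, 3.65 and 4.13 CPM at ZT8 and 11.7, 12.1, 10.2 and 14.9 at ZT20, with no overlap. Hsph1, the HSP110 exchange factor, went from 294, 265, 294 and 309 CPM at ZT12 to 571, 544, 521 and 497 at ZT20, 1.84-fold between the means. Its mice at ZT20 were above those at ZT16 and at ZT24 without exception, so its peak stood at a single time point. Dnajb1, the J protein that partners inducible HSP70, was 60.9, 59.6, 64.0 and 65.8 CPM at ZT8 and 114, 108, 83.5 and 91.9 at ZT16, with mice at ZT16 and ZT20 overlapping. Hspa1b, Dnajb1 and Hsf1 had their highest mean at ZT16, Hspa4l at ZT24 and the other 6 at ZT20.

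The abundant members moved by less. Hspa8, the constitutive HSP70, was 2443, 2364, 2403 and 2476 CPM at ZT12 and 3273, 3259, 2995 and 3076 at ZT20, 1.30-fold between the means. Hsp90aa1, the inducible cytosolic HSP90, was 1391, 1275, 1288 and 1355 CPM at ZT8 and 1913, 2006, 1870 and 1862 at ZT20. Both sets of mice were apart, and amplitudes were 0.18 ± 0.02 log2 units for Hspa8 and 0.24 ± 0.04 for Hsp90aa1. Hspd1, which encodes HSP60, had the amplitude 0.18 ± 0.03 and means of 208 ± 8.97 CPM at ZT8 and 271 ± 13.9 at ZT20. Hspa4l, a second HSP110 relative, rose from 250 ± 11 CPM at ZT8 to 340 ± 5.80 at ZT24 (amplitude 0.21 ± 0.05). Hsf1 itself had the smallest amplitude, 0.13 ± 0.03, with 38.5 ± 3.94 CPM at ZT12 and 48.0 ± 2.78 at ZT16.

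Each of the 10 had 1 highest point a day in NRF among the means of the 6 clock times (ZT0 and ZT24 as a single time), a shape shared by 34.9% of all transcripts. A 12-h component can come from a second rise or from a single rise that is no cosine. Its test called 0 of 10 in NRF (limma, lowest adjusted p = 0.401) and 0.0187% of all transcripts. At an unadjusted p under 0.05 it gave 5 of 10, Hspa1a, Hspa1b, Hspa8, Hsph1 and Hspb1, and 8.64% of all. Over the 7 time points without a set shape, 10 of 10 changed in NRF, against 29.8% of all. In NRF, mice at ZT24 and at ZT0 showed no called difference in any of the 10 (limma, 2.11% of all transcripts called). At an unadjusted p under 0.05 it was 0 of 10 (19.2% of all). In DRF 0 of 10 were called (0.491% of all). At an unadjusted p under 0.05, 2 of 10 differed in DRF (limma, 15% of all), both higher at ZT24. They were Hsph1, by 0.27 log2 units (adjusted p = 0.0601), and Hspa8, by 0.14 (adjusted p = 0.154).

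In DRF tissue, where food came with the light, 7 of the 10 transcripts had a called 12-h component, against 22.8% of all 16075 transcripts. They were Hspa1a, Hspa1b, Hspa8, Hsph1, Dnajb1, Hspb1 and Hsf1, and each of these calls was lost without ZT4. The peak of the 12-h component fell between 3.43 h for Dnajb1 and 4.93 h for Hsph1, and again 12 h later. Hspa4l, Hsp90aa1 and Hspd1 did not pass this test (limma, adjusted p = 0.22, 0.177 and 0.695). A 12-h wave looks the same on the clock of the light cycle and on that of the meals, so its timing cannot be told apart between them. The means of all 10 had 2 highest points a day, but so did those of 80.9% of all transcripts, and for the 7 with a 12-h component these were ZT4 and ZT16, as for 24.7% of all.

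**Figure D3:**
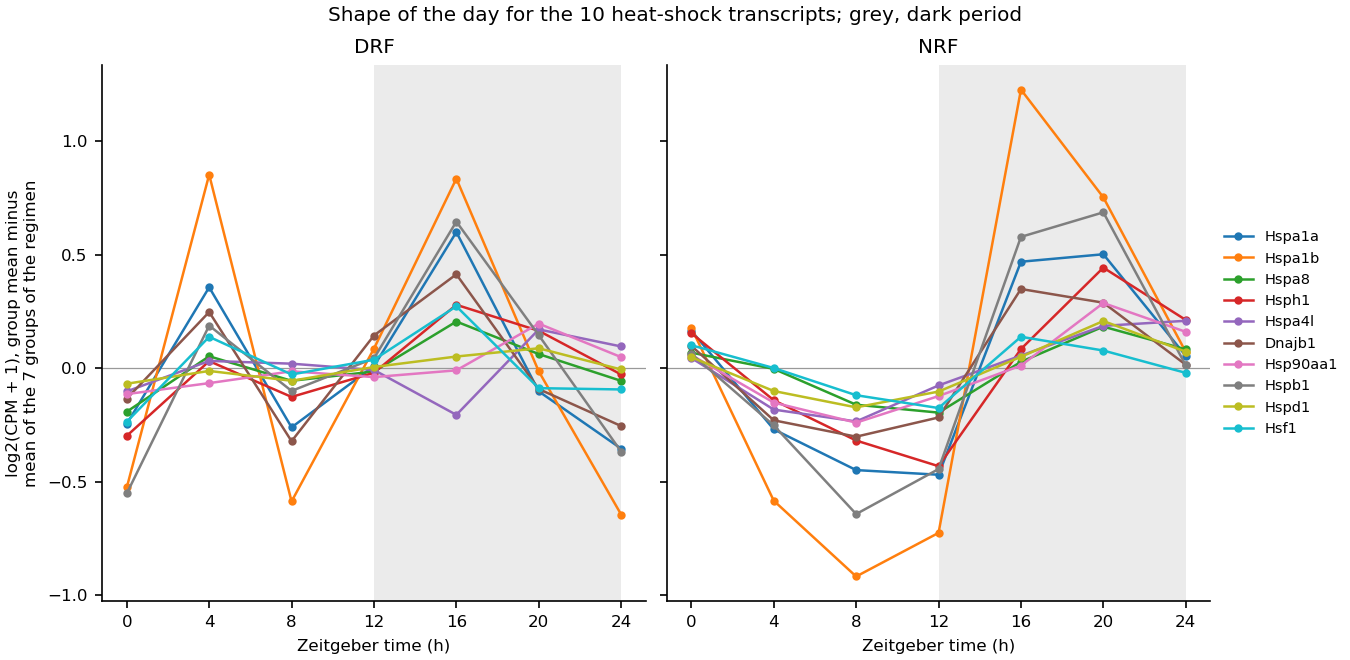
Group means of log2(CPM + 1) for the 10 transcripts against zeitgeber time, each relative to the mean of the 7 groups of its regimen, DRF left and NRF right. In NRF the lines rise together after ZT12, whereas in DRF most lines peak at ZT4 and at ZT16 and Hspa4l, Hsp90aa1 and Hspd1 stay flatter.

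The inducible HSP70 genes had the largest 12-h amplitudes in DRF, 0.77 ± 0.10 log2 units for Hspa1b (limma, adjusted p = 3.71e-06) and 0.43 ± 0.06 for Hspa1a (adjusted p = 2.29e-06). Hspa1b was 3.58, 8.18, 5.25 and 4.69 CPM at ZT0, 16.6, 9.30, 15 and 22.6 at ZT4, and 6.19, 4.05, 4.72 and 5.07 at ZT8. All mice at ZT4 were thus above all mice at ZT0 and at ZT8, and the level was back at its start 8 h after food arrived. In the dark period it was 12.6, 18.6, 16 and 13.3 CPM at ZT16 and 6.87, 11.9, 7.53 and 6.11 at ZT20, again without overlap. At ZT12 in DRF, 3 mice lay between 6.08 and 6.78 CPM and replicate 4, whose GC trend was the highest of those 54 libraries (0.17), was at 18.5. The same mouse was the highest at ZT12 for Hspa1a (27.7 CPM against 15 to 16.4) and for Dnajb1 (113 against 78.4 to 81.0).

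Hspa1a in DRF was 26.8, 18.8, 23.0 and 25.1 CPM at ZT4, 16.3, 14.5, 14.1 and 14.3 at ZT8, and 24.4, 31.5, 29.9 and 25.5 at ZT16. Dnajb1 followed the same course, with 106, 84.2, 88.7 and 95.3 CPM at ZT4, 65.2, 59.1, 62.6 and 63.3 at ZT8 and 102, 102, 109 and 106 at ZT16. For both genes the mice at ZT8 were below all mice at ZT4 and at ZT16. The 12-h amplitude of Dnajb1 was 0.32 ± 0.04 (limma, adjusted p = 1.08e-06), the smallest adjusted p of the 10. Summed over Hspa1a and Hspa1b, the level was 20.7 ± 5.56 CPM at ZT0, 39.3 ± 8.46 at ZT4, 19.8 ± 1.83 at ZT8 and 43.0 ± 6.10 at ZT16.

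With every library kept, Hspa8, Hsph1 and Hspb1 had a higher mean at ZT16 than at ZT4, as did Hspa1a, Dnajb1 and Hsf1. Hspa8 in DRF was 2301, 2439, 2286 and 2476 CPM at ZT0, 2667, 2771, 2906 and 2912 at ZT4 and 2955, 3043, 3335 and 3189 at ZT16. Mice at ZT16 were above all mice at ZT12 and ZT20, while those at ZT4 overlapped with ZT8. Hsph1 was 284, 317, 298 and 329 CPM at ZT0, 377, 351, 408 and 407 at ZT4 and 462, 501, 455 and 416 at ZT16. Hspb1 was 3.6, 4.68, 5.22 and 3.95 CPM at ZT0, 7.23, 5.71, 8.57 and 10.9 at ZT4 and 9.28, 10.9, 12.8 and 12.2 at ZT16. For Hspa8, Hsph1 and Hspb1, ZT0 was the lowest group mean in DRF, and no mouse at ZT4 was as low as a mouse at ZT0. Their 12-h amplitudes were 0.12 ± 0.02, 0.15 ± 0.03 and 0.37 ± 0.07 log2 units.

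Hsf1, whose product binds heat-shock promoters, was 37.5, 35.3, 32.3 and 39.5 CPM at ZT0, 43.6, 46.6, 46.4 and 52.0 at ZT4 and 48.1, 45.7, 57.0 and 57.1 at ZT16 in DRF. The higher values at ZT16 belong to replicates 3 and 4, the libraries that stand apart in their GC trend. Replicates 1 and 2 at ZT16 lay within the range at ZT4 and within that at ZT12, 36.8 to 50.9 CPM. The 12-h amplitude of Hsf1 in DRF, 0.18 ± 0.03 log2 units (limma, adjusted p = 0.000361), was above its 24-h amplitude in NRF, and Hsf1 was alone among the 10 in this. Its 12-h call held without replicates 3 and 4 at ZT16 but was lost without ZT16 or without ZT4.

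Hsp90aa1, Hspa4l and Hspd1 were the flatter members in DRF. Hsp90aa1 ran between 1367 ± 94.2 CPM at ZT0 and 1694 ± 76.3 at ZT20. At ZT16 its mice were at 1681, 1862, 1360 and 1091 CPM, and those of Hspa4l at 325, 316, 200 and 171. The lower values belong to replicates 3 and 4, the libraries that stand apart in their GC trend, and their part in this was not tested beyond leaving them out. Without them the 12-h test called the same 7 members. The test over the 7 time points then called 9 of 10, Hsp90aa1 and Hspd1 included. With every library it called 7 of 10 and 32.6% of all transcripts. The share of all transcripts without these libraries is not given here, so the gain cannot be read as particular to the members. Hspd1 stayed between 215 ± 10.6 CPM at ZT0 and 239 ± 14.5 at ZT20.

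**Figure D4:**
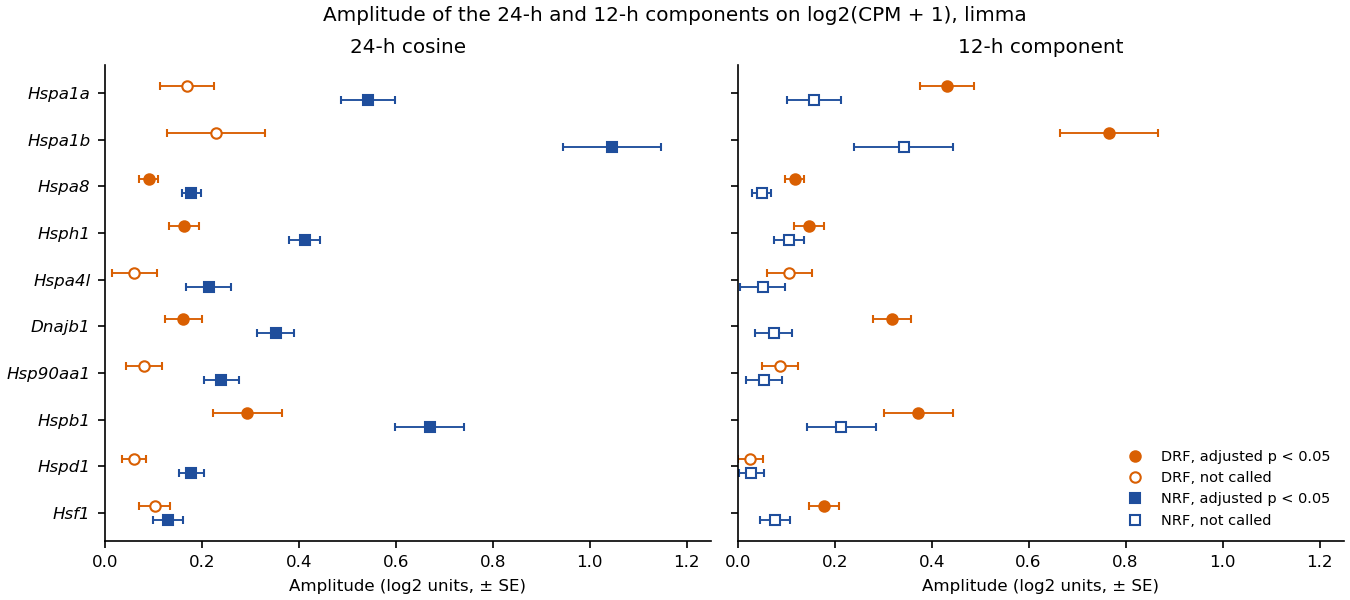
Amplitude in log2 units with SE of the 24-h cosine (left) and the 12-h component (right) in DRF (orange circles) and NRF (blue squares) for each transcript, filled where the limma adjusted p was under 0.05. The 24-h amplitude was larger in NRF for all 10, and the 12-h amplitude was larger in DRF for all but Hspd1.

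On the 24-h scale, the combined JTK_CYCLE and Lomb-Scargle test called 0 of 10 in DRF (lowest adjusted p = 0.125, for Hsph1) and 0.813% of all transcripts. Hspa8 and Hsph1 had an unadjusted p under 0.05. The limma cosine, fitted beside the 12-h component, called 4 of 10 in DRF, Hspa8, Hsph1, Dnajb1 and Hspb1, against 5.19% of all. Their 24-h peaks lay between 14.9 h for Hspb1 and 16.9 h for Hsph1, in the dark period although the mice ate in the light. In NRF the peaks of these 4 were also in the dark but later, from 19.1 h for Dnajb1 to 21.5 h for Hspa8. The combined test looks for a single daily wave, and without ZT4 it called 6 of 10 in DRF, Hspa1a, Hspa1b, Hspa8, Hsph1, Dnajb1 and Hspb1, and 2.09% of all transcripts. The 12-h test then called 0 of 10 and 1.39% of all. The 7 calls of a 12-h component therefore rest on ZT4.

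A call in one regimen and none in the other is no test of a difference, so the 24-h waves were compared between regimens over all 56 mice. They differed for 8 of 10 transcripts (13.4% of all), Hspa1a, Hspa1b, Hspa8, Hsph1, Dnajb1, Hspb1, Hspd1 and Hsf1. The amplitude of the difference was largest for Hspa1b, 0.96 ± 0.14 log2 units, and smallest among these for Hspd1, 0.13 ± 0.04. Hspa4l and Hsp90aa1 missed the threshold (limma, adjusted p = 0.0614 and 0.0635). Counted from the start of the meal in place of lights on, 9 of 10 differed (22.3% of all), all but Hsf1 (limma, adjusted p = 0.135). The call of Hspa4l was lost without DRF replicate 1 at ZT8, DRF replicate 2 at ZT20 or NRF replicate 2 at ZT12, and in 9 of 76 alternatives in all (adjusted p up to 0.639).

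The 12-h components themselves differed between regimens for 1 of 10, Dnajb1 (0.27 ± 0.05 log2 units, limma adjusted p = 0.0481), against 0.292% of all transcripts. This call was lost in 43 of 76 alternatives. At an unadjusted p under 0.05 the test gave 5 of 10, against 14% of all. The difference of Hspa1a was 0.34 ± 0.08 log2 units (limma, adjusted p = 0.0995). For Hspa1b the amplitudes were 0.77 in DRF and 0.34 in NRF, a difference of 0.45 ± 0.14 that missed the threshold (adjusted p = 0.27). The 7 calls in DRF with 0 in NRF are thus no evidence that the 12-h wave is particular to DRF. Only for Dnajb1 did the direct test call a difference, at the edge of the threshold. The mean level over the day differed for 0 of 10 (limma, lowest adjusted p = 0.109, 5 of 10 and 26.2% of all transcripts at an unadjusted p under 0.05), while 10.5% of all transcripts differed.

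The regimens were then compared at each time point, 4 mice against 4. At ZT0, when DRF mice had fasted through the dark and NRF mice had just finished eating, 4 of 10 were lower in DRF (2.13% of all were lower). Hsph1 was 284 to 329 CPM in DRF and 407 to 508 in NRF, 0.70-fold, so that it fell by 0.51 ± 0.07 on the log2 scale. Hspa8 fell by 0.29 ± 0.05, Hsf1 by 0.36 ± 0.08 and Hspb1 by 0.68 ± 0.19 log2 units. DRF and NRF mice were apart for each of these. They were also apart for Hspa4l and Hsp90aa1, which were not called, so being apart adds no support to a call. The call of Hspb1 was lost without DRF replicate 1 or 4 or NRF replicate 1, 2 or 3 at ZT0, and in 8 of 75 alternatives in all (adjusted p up to 0.295). That of Hsf1 was lost when replicate 1 or 3 was left out of every group (adjusted p up to 0.128). The mean was below that in NRF for the other 6 as well, with an adjusted p of 0.101 to 0.326.

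At ZT4, 4 h after food arrived in DRF, 3 of 10 were higher in DRF (2.81% of all were higher). Hspa1b was 9.30 to 22.6 CPM in DRF and 5.28, 3.70, 4.98 and 3.2 in NRF, 3.70-fold between the means (1.63 ± 0.23 on the log2(CPM + 1) scale, which understates the change of a scarce transcript, limma adjusted p = 4.8e-05). Hspa1a was 1.74-fold higher and Dnajb1 1.42-fold higher. Mice of the regimens did not overlap for these 3 genes, which adds no support to the calls. Hspa8, Hsp90aa1 and Hspd1 differed by 0.03 log2 units or less. These 3 calls held when any single library was left out, and the sum of Hspa1a and Hspa1b was called in their place. Blood transcripts were also higher in DRF at ZT4, where the summed level of Hbb-bs, Hba-a1 and Alas2 was 344 to 1666 CPM against 166 to 213 in NRF (3 of 3 called), and their part in the difference was not tested.

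**Figure D5:**
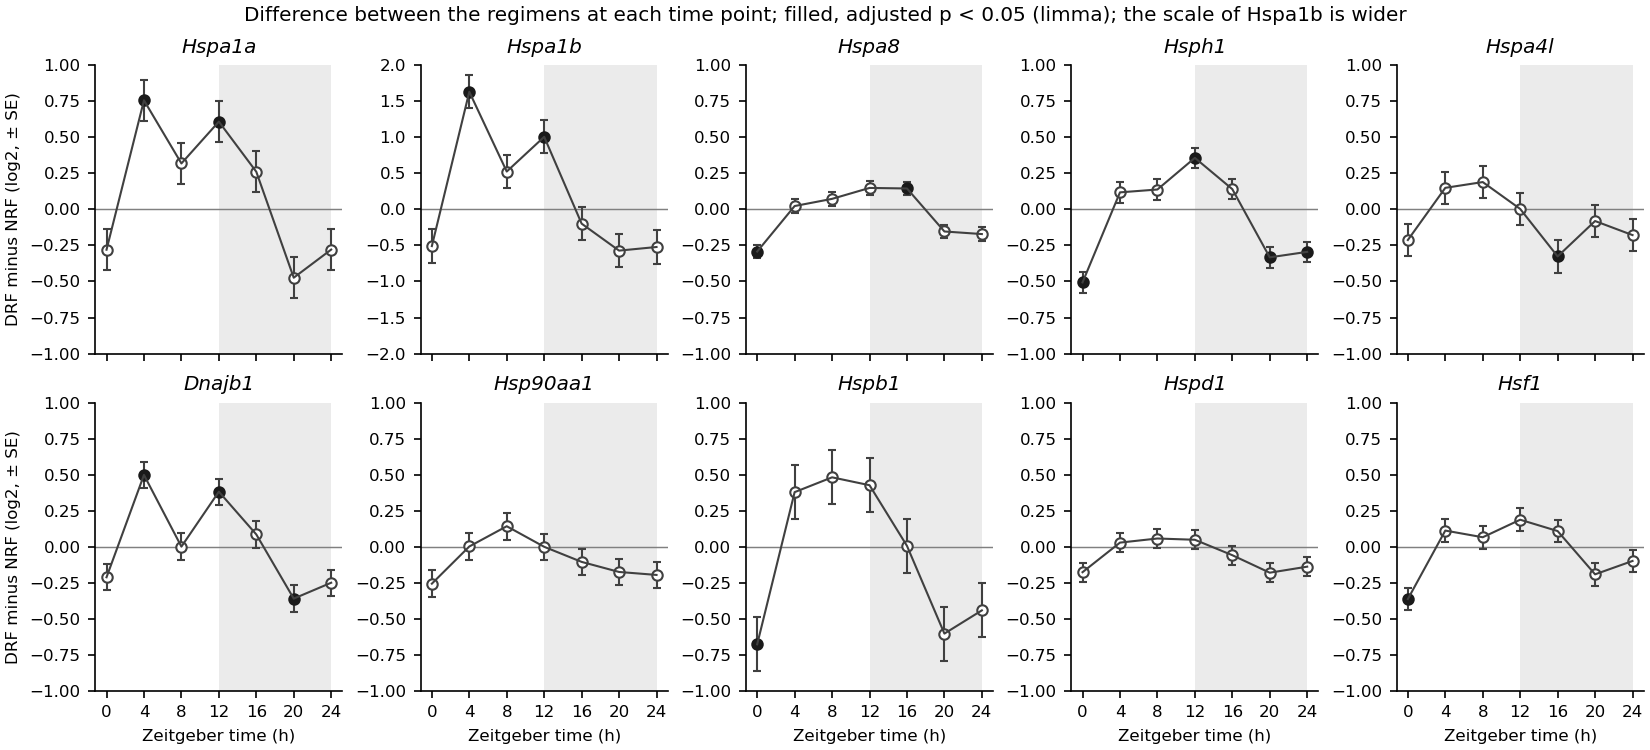
DRF minus NRF on the log2(CPM + 1) scale with SE at each zeitgeber time, filled where the limma adjusted p was under 0.05; the axis of Hspa1b is wider. Hspa1a, Hspa1b and Dnajb1 are above 0 at ZT4 and ZT12, and all 10 are below 0 at ZT0, ZT20 and ZT24.

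At ZT8, 0 of 10 differed (limma, 3 of 10 and 13.3% of all transcripts at an unadjusted p under 0.05, and 0.174% of all called). At ZT12, as feeding ended in DRF and began in NRF, 4 of 10 were higher in DRF (0.97% of all), Hspa1a 1.62-fold, Hspa1b 2.51-fold, Hsph1 1.28-fold and Dnajb1 1.32-fold. These calls hang on single libraries. Without DRF replicate 4 at ZT12, the mouse with the high values named above, or without NRF replicate 3 at ZT12, 0 of 10 were called, and without NRF replicate 1 at ZT12 1 was. The DRF and NRF mice of each of these 4 genes were apart with every library kept. Being apart adds no support to a call: at ZT8, with 0 of 10 called, the mice of Hspa1a, Hspa1b and Hspa8 were apart too.

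At ZT16, Hspa8 was higher in DRF by 0.15 ± 0.05 log2 units (6.69% of all were higher) and Hspa4l fell by 0.33 ± 0.11 (13.5% of all were lower). Without DRF replicates 3 and 4 at ZT16, neither was called and the difference of Hspa4l turned to 0.07. Leaving out DRF replicate 3, DRF replicate 4 or NRF replicate 2, 3 or 4 at ZT16 also left 0 of 10. At this time Hspa1b was close to its highest level in both regimens, 15.1 ± 2.74 CPM in DRF and 17.8 ± 4.84 in NRF, although DRF mice had been without food for 4 h and NRF mice had eaten for 4 h.

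At ZT20, relative to NRF, Hsph1 in DRF fell by 0.33 ± 0.07 and Dnajb1 fell by 0.36 ± 0.09 log2 units (0.597% of all were lower). Neither was called without DRF replicate 3 or NRF replicate 1 at ZT20, and 1 was without DRF replicate 1 or NRF replicate 2 at ZT20. At ZT24, Hsph1 in DRF fell by 0.29 ± 0.07 log2 units (0.0995% of all), with 360 to 377 CPM against 424 to 483, a call at the edge of the threshold (limma, adjusted p = 0.048) that 45 of 75 alternatives lost. At an unadjusted p under 0.05, 8 of 10 members were lower in DRF at ZT20 (6.85% of all transcripts) and 7 of 10 at ZT24 (3.91% of all).

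The rest of the chaperone network was taken from lists of 61 genes, all of which were tested. In NRF, 29 of 61 had a 24-h cosine (47.5%, against 30.2% of all transcripts). In DRF, 26 of 61 had a 12-h component (42.6%, against 22.8%) and 9 a 24-h cosine (14.8%, against 5.19%). The list was chosen with earlier results known, and its median 24-h amplitude in NRF was 0.08 log2 units, close to the 0.07 over all transcripts. Of 12 genes on the list of HSP90 and its co-chaperones, 10 cycled over 24 h in NRF and 8 over 12 h in DRF, with a median 24-h amplitude in NRF of 0.23 log2 units. They include Stip1, the adaptor between HSP70 and HSP90, Ahsa1, the activator of the HSP90 ATPase, and Fkbp4, a co-chaperone of steroid receptors. Fkbp4 had the smallest p of the network for the 12-h component in DRF, with 162 ± 7.46 CPM at ZT0, 208 ± 8.95 at ZT4, 174 ± 5.11 at ZT8 and 242 ± 24.9 at ZT16.

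At ZT0, 13 of 61 network genes were lower in DRF (21.3%, against 2.13% of all) and 0 higher. Stip1 fell by 0.47, Ahsa1 by 0.38 and Hspe1, the partner of Hspd1 in the mitochondrial chaperonin, by 0.35 on the log2 scale. At ZT24, the same clock time in other mice, 1 of 61 was lower in DRF, Serpinh1 (0.0995% of all were lower). Within DRF, Stip1 was higher at ZT24 than at ZT0 by 0.28 log2 units (limma, adjusted p = 0.0278). At ZT4, 3 were higher in DRF (4.92%, against 2.81% of all). They were Hspa2, an HSP70 relative (0.39 log2 units), Dnaja4, a J protein (0.28), and Serpinh1, the collagen chaperone HSP47 (0.41). At ZT12, 4 were higher (6.56%, against 0.97% of all), Dnaja4, Stip1, Hspa2 and Bag2. At ZT16, where the libraries that stand apart in their GC trend enter, 10 were higher and 5 lower (6.69% and 13.5% of all). At ZT20, 8 were lower (13.1%, against 0.597% of all), led by Ahsa2 and Serpinh1. The smaller lists are to be read against the same 30.2% for a 24-h cosine in NRF and 22.8% for a 12-h component in DRF, which several of them are close to. Of the J proteins, 4 of 9 had a 24-h cosine in NRF and 3 of 9 a 12-h component in DRF, and of the other small heat-shock proteins 2 of 7 and 1 of 7. The chaperonin list gave 6 of 12 for each, the HSP70 list 5 of 12 and 4 of 12, and the heat-shock factors with other HSF1 targets 2 of 9 and 4 of 9.

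The chaperones of the endoplasmic reticulum are built like the cytosolic ones but answer to protein folding stress in that compartment. Of 14, 13 had a 24-h cosine in NRF (92.9%, against 30.2% of all transcripts) and 9 a 12-h component in DRF (64.3%, against 22.8%). At ZT0 8 were lower in DRF (57.1%, against 2.13%), and at ZT4 5 were higher, Pdia4, Creld2, Sdf2l1, Manf and Dnajc3 (35.7%, against 2.81%). At ZT24, the same clock time as ZT0 in other mice, 0 of 14 had a called difference between regimens. A 12-h component was also called in NRF for 0 of the 10 members and for 2 of the 14, Sdf2l1 (0.26 log2 units, limma adjusted p = 0.00663) and Pdia4 (0.16, adjusted p = 0.0265), out of 3 such transcripts in all. Hspa5, the HSP70 of the endoplasmic reticulum (named, like the others of this list, after its values were seen), had a 24-h amplitude of 0.28 log2 units in NRF with its peak at 20.03 h and a 12-h amplitude of 0.18 in DRF.

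Cirbp and Rbm3, RNA-binding proteins whose transcripts rise on mild cooling, had their peaks at other times. Cirbp in NRF peaked at 8.95 h, with 92.2 ± 2.46 CPM at ZT8 and 50.3 ± 2.25 at ZT20. At ZT0 it was 98.7 ± 10.6 CPM in DRF and 57.3 ± 9.12 in NRF, higher in DRF by 0.78 log2 units, and Rbm3 was higher by 0.90. At ZT24, the same clock time in other mice, 0 of 2 had a called difference between regimens. Within DRF, 2 of 2 were called lower at ZT24 than at ZT0. Neither had a called 12-h component in DRF. Of the 12 immediate early genes, which mark recent neuronal firing, 0 had a called 12-h component in DRF (22.8% of all transcripts). At ZT4, 0 of these 12 differed between regimens, as against 631 of all 16075 transcripts. Of 7 glucocorticoid targets 0 had a 12-h component in DRF, against the same 22.8%.

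Over the 14 group means, the transcripts most like each member among 11279 others were partly chaperones. Those most like Hspa1a were Hspa1b, Nxf1 and Txlna (r = 0.970, 0.965 and 0.961), and those most like Hspa1b were Hspa1a, Txlna and Zbtb40 (r = 0.970, 0.962 and 0.961), where the first pair shares reads. Hspa8 was followed by Rnpep, Ahsa1 and Stip1 (r = 0.981, 0.977 and 0.977) and Hsph1 by Stip1, Rbm28 and Hspa8 (r = 0.975, 0.961 and 0.958). Hsp90aa1 was followed by Hsp90b1, its relative in the endoplasmic reticulum, Gabra2 and Hspd1 (r = 0.959, 0.95 and 0.944), and Hspd1 by Tra2a, Dnaja1 and Hsp90aa1 (r = 0.947, 0.945 and 0.944). Hspb1 was followed by Cnpy4, Dnajb11 and Snw1 (r = 0.964, 0.962 and 0.959). For Hspa4l these were Usp33, Ltn1 and Mettl4 (r = 0.978, 0.972 and 0.971), for Dnajb1 Slc15a4, Banp and Cfp (r = 0.972, 0.967 and 0.966) and for Hsf1 Mon1a, Fbxw4 and Chst10 (r = 0.961, 0.943 and 0.941). The group means share libraries, so these values describe likeness of course only.

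Among Hspa1a, Hspa1b, Hspa8, Hsph1, Dnajb1 and Hspb1, the correlation of the 7 group means within a regimen was 0.63 to 0.97 in DRF and 0.74 to 0.99 in NRF over 15 pairs. Hspa4l moved with Hsp90aa1 in both regimens, at 0.67 in DRF and 0.96 in NRF. With Hspa1a it gave 0.78 in NRF and -0.54 in DRF, where the low libraries at ZT16 enter its mean.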

How the data were processed

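PolyA RNA of the anterior hypothalamus of 56 mice was sequenced, and the groups follow the labels. Reads were cleaned with SOAPnuke, mapped with HISAT2 and Bowtie2 and counted with RSEM by the authors on GRCm38.p6 (mm10), then scaled with TMM in edgeR. The values deposited by the authors are a score: log2(CPM + 1) divided by transcript length and scaled to a fixed sum per mouse, which compresses differences. Here log2(CPM + 1) was recovered from the steps between low values (median relative deviation 2.01e-08 from the predicted steps over 1185 genes), and CPM, normalised to 29591262 to 34493346 reads per mouse, is given. Of the 17564 genes, 17456 matched a symbol.

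Combined 24-h rhythm tests (JTK_CYCLE and Lomb-Scargle, periods of 20 to 28 h, joined by Fisher's method) were run on the deposited values. Every other test used limma 3.58.1 in R 4.3.3 on log2(CPM + 1) with a pseudocount of 1, transcripts at a deposited value of at least 1 in 80% of mice, and a Benjamini-Hochberg adjusted p under 0.05 over all transcripts tested, and contrasts at a time point share 1 estimate of the spread from all 56 mice. Scripts were tested on simulated data. The genes, lists and tests were chosen with earlier results of these data known. All 10 genes are named, with the 3 transcripts most like each and up to 5 network genes per test by p-value. Single libraries, replicate numbers, time points, scaling, pseudocount, filter, weights and library trends were varied, and 3 alternatives were added after seeing the data. Promoters are from RefSeq for 7 of the 10 genes.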

Additional observations from a re-analysis of the deposited data

Results flagged for a closer look

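Among the 140 groups of 4 mice over the 10 transcripts, 9 held a mouse far from the other 3 by Dixon's test, where chance gives about 1 in 20 groups, or 7. Replicate 4 of DRF at ZT12 was the highest for Hspa1a (27.7 CPM, others 15 to 16.4), Hspa1b (18.5, others 6.08 to 6.78) and Dnajb1 (113, others 78.4 to 81.0). At ZT8 in DRF, replicate 1 was highest for Hspa1a at 16.3 CPM and replicate 4 for Hsf1 at 45.7 CPM. Hspa4l had a low mouse in DRF at ZT0 (replicate 1, 233 CPM) and a high one in NRF at ZT20 (replicate 2, 345 CPM). In NRF, Hsp90aa1 had a high mouse at ZT0 (replicate 1, 1843 CPM) and Hspb1 at ZT12 (replicate 1, 6.26 CPM).

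The shape of the day differed between regimens by limma's test of the difference itself. The amplitude of the difference of the 24-h waves on the clock of the light cycle, in log2 units, was 0.96 for Hspa1b, 0.62 for Hspb1, 0.52 for Hspa1a, 0.37 for Hsph1, 0.31 for Dnajb1, 0.20 for Hsf1, 0.19 for Hspa8 and 0.13 for Hspd1. Counted from the start of the meal it was 1.17 for Hspa1b, 0.83 for Hspb1, 0.61 for Hspa1a, 0.51 for Hsph1, 0.45 for Dnajb1, 0.32 for Hsp90aa1, 0.23 for Hspd1 and for Hspa4l, and 0.21 for Hspa8. Both are large for Hspa1b, whose waves in DRF and NRF did not match at either alignment. A difference of the 12-h component was called for Dnajb1 alone, 0.27, and this call was lost in 43 of 76 alternatives.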

How the results depend on the processing

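Of 4385 values of called members under an alternative, 4182 kept their direction and their side of the threshold, 201 lost the call and 2 changed sign. Both were of Hspa4l, DRF versus NRF at ZT16 (-0.33 in the reported fit), which was 0.00630 with array weights and 0.0694 without DRF replicates 3 and 4 at ZT16. Counts are of 10 transcripts. The 24-h rhythm in NRF (10) was 0 by Lomb-Scargle alone, and in DRF (0) it was 1 without ZT0, 6 without ZT4 and 4 by limma's cosine. The 12-h component in DRF (7) was 0 without ZT4. The 24-h difference (8) was 5 without ZT12, and on meal time (9) it was 5 without ZT8 and 5 without ZT20.

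The 12-h difference (1) was 0 with median-of-ratios size factors, without both doubted DRF libraries at ZT16 and without ZT0, ZT4, ZT8 or ZT24, 2 without ZT16 or ZT20, 3 without ZT12 and 4 with array weights. The mean level (0) was 2 without ZT0, ZT12, ZT16, ZT20 or ZT24 and 3 without ZT8. ZT24 against ZT0 in DRF (0) was 1 with size factors, array weights, without ZT16 and without both doubted libraries. With array weights the counts were 8 at ZT0 (4), 1 at ZT8 (0), 1 at ZT12 (4), 0 at ZT16 (2), 8 at ZT20 (2) and 3 at ZT24 (1). The ZT16 count was also 1 on the log2 of the deposited value, 1 without ZT0 or ZT24 and 0 without both doubted libraries, and the ZT20 count 5 with library trends removed and 1 without ZT8 or ZT24. The ZT24 count was 0 on the deposited values, with size factors, with no filter and without ZT4, ZT8 or ZT20. The cause of these shifts was not tested.

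With a replicate or library left out, the 12-h difference ranged from 0 to 2, the mean level from 0 to 4, ZT24 against ZT0 in DRF from 0 to 1, and the counts from 2 to 5 at ZT0, 0 to 5 at ZT12, 0 to 2 at ZT16, 0 to 3 at ZT20 and 0 to 1 at ZT24. The mean level count was 2 without DRF replicate 2 at ZT16 alone. Replicate numbers only name the mice: the median correlation of deviations was 0.0060 over 364 pairs with the same number and -0.0049 over 1092 others. A replicate block took the ZT24 count to 0 and left the other counts as they were. With 4 mice a group, moderate differences of the scarce transcripts are the least certain.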

Other observations

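Mice of a group varied more in DRF than in NRF for most members. The SD within groups on the log2 scale was 0.41 in DRF and 0.25 in NRF for Hspa1b, 0.33 and 0.21 for Hspb1, and 0.21 and 0.11 for Hspa4l, while Hsph1 had 0.09 and 0.11. The ratio of DRF to NRF lay between 0.86 for Hsph1 and 1.95 for Hspa4l. Over all transcripts the median SD was 0.12 in DRF and 0.10 in NRF, so the wider spread in DRF was general, and the part of the libraries that stand apart in it was not tested.

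Glucocorticoid targets are transcripts that rise with corticosterone. Of 7, all had a 24-h cosine in NRF (30.2% of all transcripts) and 5 in DRF (5.19% of all). A 12-h component in DRF was called for 0 of 7 (22.8% of all). Tsc22d3, named after its values were seen, had amplitudes of 0.51 log2 units with its peak at 14.3 h in NRF and 0.40 with its peak at 15.9 h in DRF. Fkbp5, which is also a co-chaperone of HSP90, had 0.25 at 15.6 h and 0.30 at 17.3 h. Over the network lists, the mean level of the day differed between regimens for 11 of 61 (18%, against 10.5% of all transcripts), 3 higher and 8 lower in DRF.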
